A study of Rattus norvegicus with 12 samples.

Results

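The genes of CCN matricellular proteins and of the YAP-TEAD pathway described here are 9 of the 17494 genes in the count table. They are 3 CCN family members (Ccn1, Ccn2 and Ccn3), the coactivator genes Yap1 and Wwtr1, the transcription factor gene Tead1, the kinase genes Lats1 and Lats2, and Amotl2. All 9 passed the filter on low counts. The set was chosen by the unadjusted p of Ccn2 in the comparison of the treated with the untreated rats, so that every value of these genes in that comparison is a description and carries no test. Of the 9, only Ccn2 had an unadjusted p under 0.05 in that comparison, beside 132 of the 12325 genes tested (1.07%), and nothing is read from this share.

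CCN proteins are secreted modular proteins of the extracellular matrix that bind integrins and heparan sulphate, and Ccn1 and Ccn2 are the standard readouts of the Hippo pathway. In that pathway the kinases LATS1 and LATS2 phosphorylate the coactivators YAP1 and TAZ (encoded by Wwtr1) and keep them out of the nucleus, where they otherwise join TEAD factors at target genes. Amotl2 encodes an angiomotin-like protein that holds YAP1 at cell junctions, and Amotl2 and Lats2 are themselves targets, so that the pathway is damped by its own output. In the adult brain YAP1 and TAZ are found mainly in astrocytes, ependymal cells and blood vessels, whereas Ccn2 also marks the deepest neurons of the cortex, those of layer 6b.

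Hippocampal RNA was sequenced from 12 male wild type Long-Evans rats, 1 library per rat. All had been exposed to 3 blasts in a shock tube at 10 weeks of age and were examined 29 weeks later. The 6 blast-boldine rats received boldine, an alkaloid of the Boldo tree that blocks connexin hemichannels, at 500 mg/kg chow, and the 6 blast-controls received chow without it. Rats without blast exposure are not analysed here, so that the comparison is between 2 diets after blast. The GEO labels name the tissue only as brain, and hippocampus is the study's word. In every library, 6 markers of hippocampal neurons were detected. Their summed level was 1147 to 1646 CPM, the counts scaled to a common library total of 1000000, in the 11 deep libraries. The 7 listed markers of cortical layer 6 and 6b neurons were also detected in each deep library (196 to 285 CPM). Detection alone therefore does not tell hippocampus from cortex.

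The libraries differed in depth and fell into 2 sets. The 11 deep libraries held 10148474 to 40850106 counts, and blast-control rat 6 held 74008, in which 1 count equals 15.8 CPM and the detection limit of 3 counts equals 47.5 CPM. In rat 6, Lats1 had 12 counts, Lats2 had 9, Amotl2 had 6, Ccn3 had 4, Ccn2 and Wwtr1 had 1 each, and Ccn1, Yap1 and Tead1 had 0. The values of each gene are therefore given for the other 5 blast-controls, and fits are given with and without rat 6. Each suffix in the library names occurs on 2 libraries, and the libraries were therefore assigned to 2 sets, called sheet 1 and sheet 2 here; the labels do not name them, and what set them apart is not known. The assignment used here, in which rats 1, 7, 9, 20, 32 and 35 form sheet 1, accounted for 95.1% of the first principal component, against 1.54% for treatment. Because the sheets were read partly from the data, differences between them are given as sizes with no test.

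The promoters of the genes are shown first, because binding sites for TEAD factors are what joins the CCN genes to YAP1 and TAZ. The window ran from 250 bases before to 50 bases after the annotated start, and RefSeq on the rat build GRCr8 gave it for 6 of the 9 genes. The core TEAD motif, GGAATG or its reverse complement CATTCC, was found in 4 of these 6, and in 14.2% of 33469 rat promoters of the same length. The Ccn2 promoter held 3 copies, whose first letters along the gene lay 166, 101 and 92 bases before the start, and 30 of all promoters (0.0896%) held at least 3. Ccn1 held 1 copy (113 bases before the start), Amotl2 held 1 (76 bases) and Yap1 held 1 (116 bases), whereas the windows of Wwtr1 and Lats1 held none. Both Ccn2 and Ccn1 also held TATAAA, the core of the TATA box, 31 and 34 bases before the start. These letters or their reverse complement TTTATA were found in 14.2% of the promoters and in none of the other 4 windows. Neither motif overlapped the other in these windows. The sequences of Ccn2 (chr1:22624565-22624864, minus strand), Ccn1 (chr2:237225640-237225939, minus strand) and Amotl2 (chr8:112182376-112182675, plus strand) are written 5′ to 3′ along the gene, with the TEAD letters in capitals:
Ccn2: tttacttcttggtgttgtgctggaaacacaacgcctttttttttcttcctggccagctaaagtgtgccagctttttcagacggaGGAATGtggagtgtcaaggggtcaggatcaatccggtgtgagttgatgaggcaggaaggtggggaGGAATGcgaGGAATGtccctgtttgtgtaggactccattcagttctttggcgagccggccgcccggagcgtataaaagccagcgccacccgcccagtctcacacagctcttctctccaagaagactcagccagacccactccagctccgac
Ccn1: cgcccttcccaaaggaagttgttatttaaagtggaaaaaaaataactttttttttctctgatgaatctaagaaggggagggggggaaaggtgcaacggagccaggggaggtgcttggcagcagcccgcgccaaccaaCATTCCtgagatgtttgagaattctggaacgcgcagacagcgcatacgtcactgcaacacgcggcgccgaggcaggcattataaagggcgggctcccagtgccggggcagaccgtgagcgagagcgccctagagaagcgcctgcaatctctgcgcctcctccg
Amotl2: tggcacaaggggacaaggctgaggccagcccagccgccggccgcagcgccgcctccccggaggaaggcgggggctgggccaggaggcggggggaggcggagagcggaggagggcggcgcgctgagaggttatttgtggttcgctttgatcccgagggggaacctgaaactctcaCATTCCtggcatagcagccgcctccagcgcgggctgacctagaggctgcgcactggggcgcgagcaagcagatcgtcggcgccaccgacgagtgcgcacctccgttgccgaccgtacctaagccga

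Ccn2, which encodes connective tissue growth factor, was lower in blast-boldine rats. Its position in mRatBN7.2, the build of all gene positions given here, is chr1:20802200-20805315 on the minus strand. It measured 6.31, 7.99 and 6.92 CPM in blast-boldine rats 20, 32 and 35 of sheet 1, and 13.7, 11.2 and 9.67 CPM in blast-control rats 1, 7 and 9 of the same sheet. On sheet 2 it measured 5.78, 6.45 and 5.46 CPM in blast-boldine rats 12, 17 and 19, and 7.80 and 7.78 CPM in blast-control rats 4 and 5. On either sheet the highest blast-boldine rat was below the lowest deep blast-control, which also held for 87 of 12529 genes (0.694%). Across the sheets, blast-boldine rat 32 overlapped the blast-controls of sheet 2, and 5 of 6 blast-boldine rats were below all 5 deep blast-controls; at least 5 were in 60 of 12529 genes (0.479%). The mean was 6.49 ± 0.897 CPM with boldine (SD, n = 6) against 10.04 ± 2.52 CPM without it (SD, n = 5). The log2 fold change was -0.65 (SE 0.18) with all 12 rats, -0.64 (SE 0.17) without rat 6, and -0.60 (SE 0.13) once the sheet was also a term of the model. In rat 6, the single Ccn2 count is under the detection limit. No gene of the table had an adjusted p under 0.05 in edgeR's quasi-likelihood test (0%; 85 genes had an unadjusted p under 0.05 in DESeq2).

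**Figure D1:**
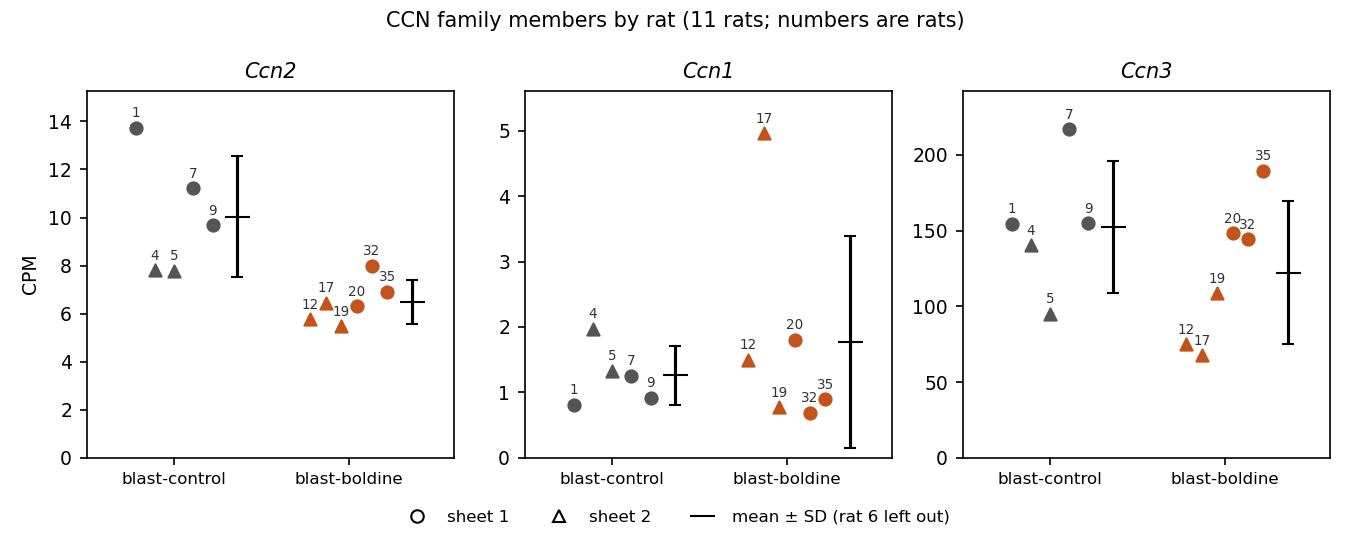
CPM (linear axis from 0) of Ccn2, Ccn1 and Ccn3 in 11 rats, each point 1 rat with its number, circles for sheet 1 and triangles for sheet 2; bars are the mean ± SD of the points, and rat 6 is left out. For Ccn2, blast-boldine rats lie between 5.46 and 7.99 CPM and blast-controls between 7.78 and 13.7 CPM, whereas for Ccn1 and Ccn3 the groups overlap.

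Ccn1, which encodes the matrix protein CYR61 and is annotated at chr2:234562410-234565370, was the lowest of the 9 genes. The 5 deep blast-controls measured 0.812, 1.97, 1.33, 1.26 and 0.917 CPM (rats 1, 4, 5, 7 and 9), and the blast-boldine rats measured 0.689 to 4.96 CPM with a median of 1.20 CPM. The groups overlapped, and the highest value came from 1 rat, blast-boldine rat 17. These values rest on 10 to 50 counts per rat. The means were 1.77 ± 1.62 CPM with boldine (SD, n = 6) and 1.26 ± 0.457 CPM without it (SD, n = 5). The fitted log2 difference was 0.48 (SE 0.49) with all rats and 0.47 (SE 0.52) without rat 6, and it was -0.10 (SE 0.33) when rat 17 was left out. The direction of the Ccn1 difference thus changed with 1 rat, and in each of these fits the difference was smaller than its SE.

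Ccn3, also known as Nov, is annotated at chr7:86094000-86101022 and encodes a CCN protein that neurons make. It measured 154, 140.4, 95.2, 217 and 155 CPM in blast-control rats 1, 4, 5, 7 and 9. Blast-boldine rats 12, 17 and 19 measured 74.8, 67.5 and 109 CPM, and rats 20, 32 and 35 measured 148, 144 and 189.6 CPM. The groups overlapped on both sheets, and the median of the deep blast-controls exceeded 5 of the 6 blast-boldine rats. The mean was 122 ± 47.2 CPM (SD, n = 6) against 152 ± 43.6 CPM (SD, n = 5), with a log2 fold change of -0.25 (SE 0.28) with all rats, -0.33 (SE 0.28) without rat 6 and -0.29 (SE 0.15) when the sheet was also modelled. Among the fits that left out 1 rat, the value ran from -0.41 (without blast-boldine rat 35) to -0.08 (without blast-control rat 7). The other family members had few counts: Ccn4 had 4 to 80 counts in the deep libraries, with a log2 fold change of 0.03 (SE 0.34). Ccn5 had 4 to 70 counts, with 0.56 (SE 0.49). Ccn6 had 1 to 22 counts and did not pass the filter.

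For the coactivators and the TEAD factor, the diet groups overlapped, and their log2 fold changes with all rats were smaller than the SE. Yap1 measured 16.6 to 28.0 CPM (median 20.6) in blast-boldine rats, and 20.8, 24.3, 17.6, 24.2 and 16.9 CPM in blast-control rats 1, 4, 5, 7 and 9. Wwtr1 measured 15.2 to 18.4 CPM (median 16.7) in blast-boldine rats, and 15.5, 21.3, 10.1, 17.3 and 17.01 CPM in the same blast-controls. For both genes the groups overlapped on each sheet. The log2 fold changes were 0.07 (SE 0.21) for Yap1 and 0.05 (SE 0.17) for Wwtr1, and without rat 6 they were 0.03 (SE 0.17) and 0.04 (SE 0.16). Tead1 measured 30.5, 28.0 and 23.1 CPM in blast-boldine rats 12, 17 and 19, and 13.9, 15.1 and 9.85 CPM in rats 20, 32 and 35. The blast-controls measured 22.2 and 25.9 CPM (rats 4 and 5) and 11.7, 13.8 and 11.1 CPM (rats 1, 7 and 9). The values of Tead1 thus split by sheet in both groups. Its log2 fold change was 0.28 (SE 0.33) with all rats and 0.12 (SE 0.13) without rat 6 and with a sheet term. Among the fits that left out 1 rat, it ran from 0.12 (without blast-boldine rat 12) to 0.48 (SE 0.34, without blast-control rat 5).

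The kinase genes and Amotl2 varied least between rats of the same diet and sheet, with an SD of log2 CPM of 0.08 for Lats1, 0.08 for Lats2 and 0.15 for Amotl2, against 0.17 for Ccn2 and 0.79 for Ccn1. Lats2 measured 94.6 to 114 CPM in blast-boldine rats and 89.5 to 112 CPM in the deep blast-controls, and its log2 fold change was 0.05 (SE 0.09) without rat 6. Lats1 measured 88.1 to 123 CPM and 94.8 to 124 CPM, and its log2 fold change was 0.03 (SE 0.14) without rat 6 and -0.05 (SE 0.17) with it. On sheet 1 the 3 blast-boldine rats (88.1, 91.8 and 88.2 CPM) lay under the 3 blast-controls (96.0, 97.1 and 94.8 CPM) for Lats1, as in 3.97% of 12529 genes, and on sheet 2 the groups overlapped. Amotl2 measured 45.5 to 80.1 CPM and 41.7 to 83.8 CPM, with a log2 fold change of 0.05 (SE 0.22) without rat 6 and 0.01 (SE 0.09) when the sheet was added. Among targets of YAP1 and TAZ, Amotl2 and Lats2 lay near 0 and Ccn2 lay at -0.64 in the fit without rat 6. Of 14 other target genes, 9 were below 0 in that fit, with a median of -0.06, where 50.3% of all genes were below 0. One of these targets, Ankrd1, lay at -0.57 (SE 0.29). The differences between these genes were not tested.

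**Figure D2:**
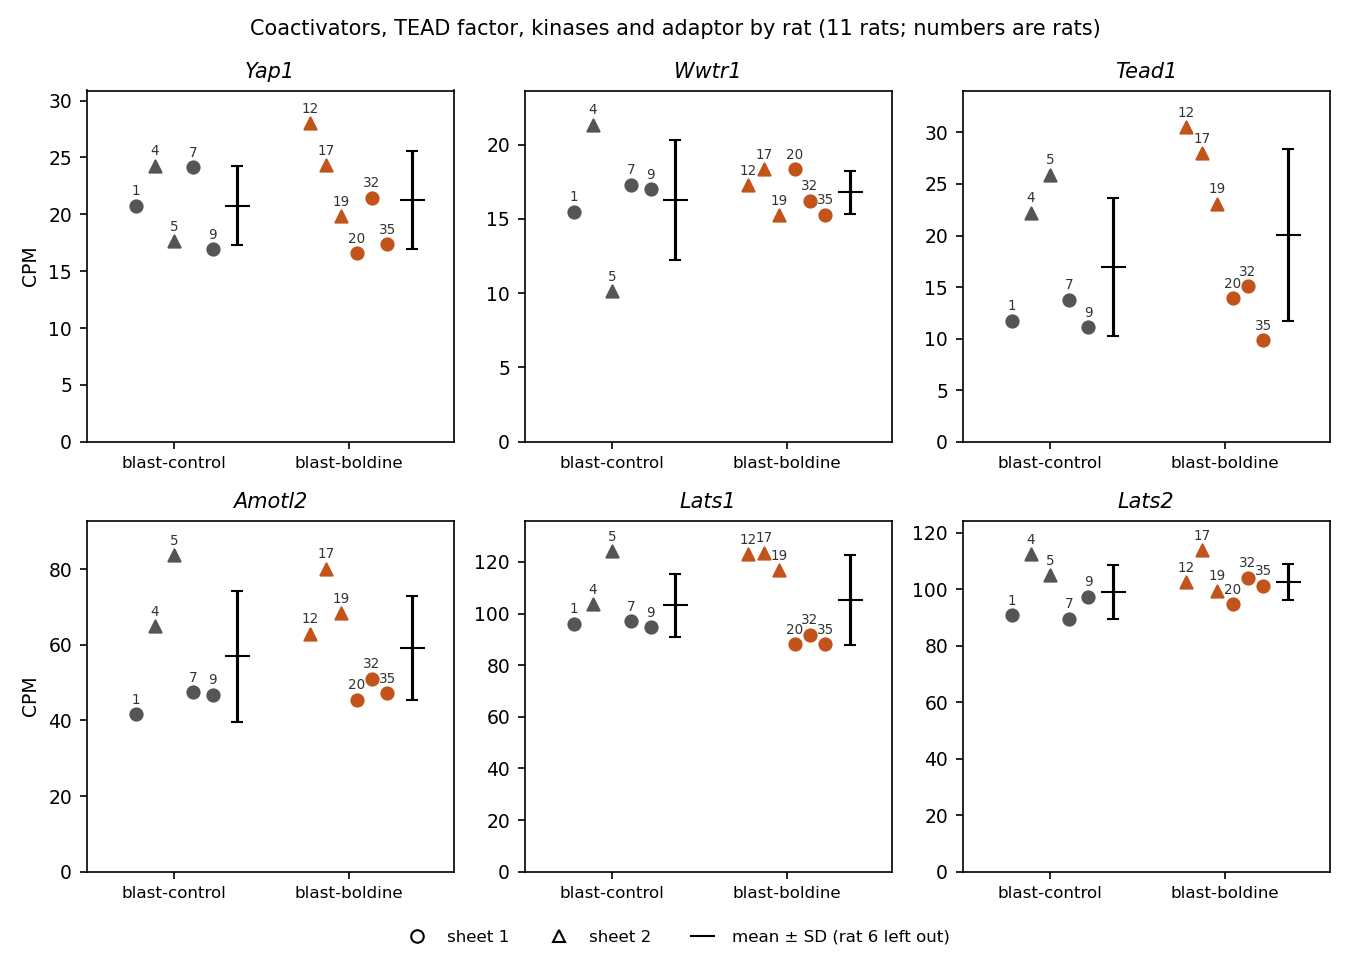
CPM (linear axis from 0) of the 2 coactivator genes, Tead1, Amotl2 and the 2 kinase genes in 11 rats, drawn as 1 point per rat with circles for sheet 1 and triangles for sheet 2, and bars for the mean ± SD. Blast-boldine and blast-control rats overlap in each panel, and the triangles lie above the circles for Tead1, Amotl2 and Lats1.

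Differences between the sheets were larger in size than those between diets for 7 of the 9 genes in the model with both. Large sheet differences were common in the whole table. The first principal component, of which the sheets accounted for 95.1%, held 66.3% of the variance of 12529 genes. The share of all genes with the larger sheet difference was not computed, and nothing is read from the 7 of 9. With treatment in the model and rat 6 left out, Tead1 was higher on sheet 2 by 1.04 on the log2 scale (SE 0.13), Ccn1 by 0.92 (SE 0.42), Amotl2 by 0.64 (SE 0.09) and Lats1 by 0.37 (SE 0.07). Ccn3 was lower on sheet 2 with a log2 difference of -0.77 (SE 0.16), and Ccn2 with -0.39 (SE 0.13). Yap1 (0.24, SE 0.14), Lats2 (0.16, SE 0.06) and Wwtr1 (-0.00434, SE 0.15) differed least. Lists of genes differed between the sheets as well. The 6 endothelial markers summed to 81.1 to 122 CPM in the 6 rats of sheet 1 and 215 to 291 CPM in the 5 deep rats of sheet 2. Mural cell markers (71.6 to 104 against 120 to 151 CPM) also went in the direction of Tead1 and Amotl2. The listed Hippo kinases, adaptors and regulators (1579 to 1749 against 2479 to 3061 CPM) did so too. Astrocyte markers went the other way with overlap (3778 to 4684 against 2824 to 3912 CPM). The part of any cell type in the sheet difference was not tested. The difference in log2 fold change between the sheets, fitted as an interaction term and given with no test, was 0.33 (SE 0.25) for Ccn2. For the other 8 genes it lay between -0.35 (Ccn3) and 0.38 (Yap1).

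**Figure D3:**
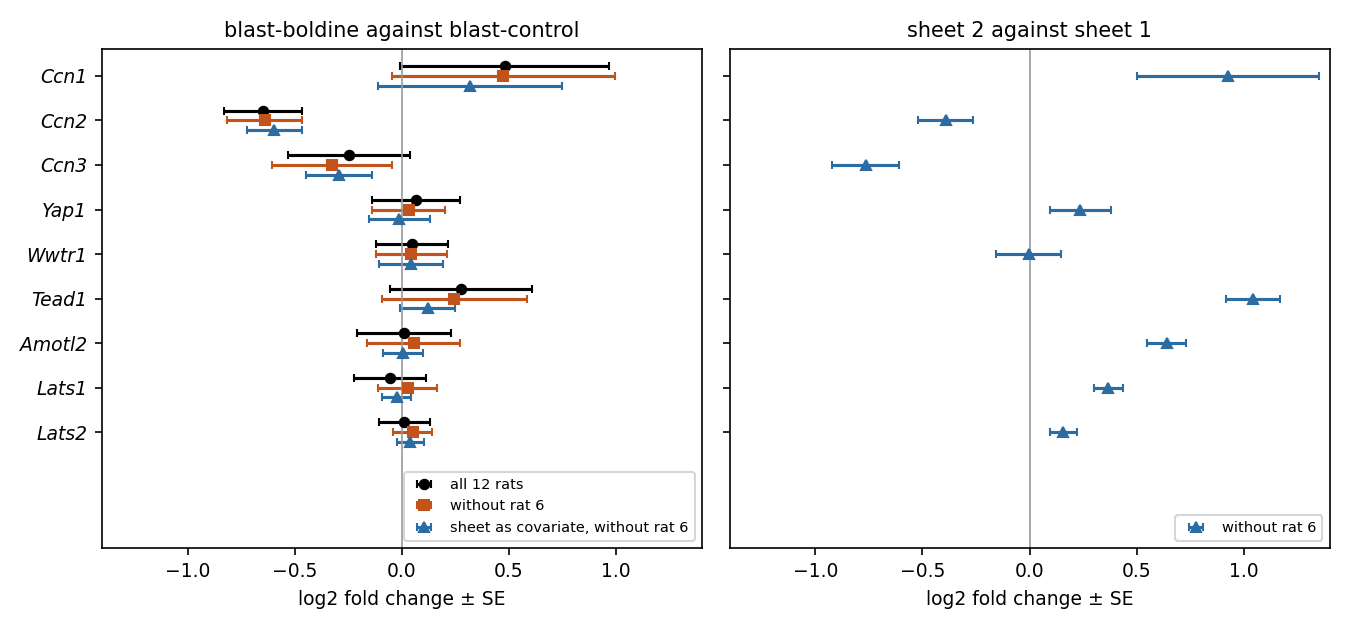
Left, log2 fold change of blast-boldine against blast-control (x axis, bars ± SE) of the 9 genes in 3 edgeR fits; right, log2 difference of sheet 2 against sheet 1 without rat 6. In the left panel Ccn2 lies at -0.65 to -0.60 and the other genes lie within 2 SE of 0, and in the right panel Tead1 lies at 1.04 and Ccn3 at -0.77.

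Levels were also compared between the genes, per length of exon, over the 11 deep libraries. Ccn3 was highest with 93.7 ± 31.7 CPM per kilobase (SD, n = 11), followed by Lats2 (20.4 ± 1.58). Then came Lats1 (14.7 ± 2.07), Yap1 (14.3 ± 2.57), Amotl2 (14.0 ± 3.55), Tead1 (11.9 ± 4.76) and Wwtr1 (10.8 ± 1.80). Ccn2 (3.47 ± 1.082) and Ccn1 (0.774 ± 0.611) were lowest. Neighbours at both ends of this order were apart in every rat: Ccn3 exceeded Lats2, Lats2 exceeded Lats1, Wwtr1 exceeded Ccn2 and Ccn2 exceeded Ccn1 in 11 of 11 rats. The order of the 5 genes in the middle varied between rats, since Lats1 exceeded Yap1 in 6 rats, Yap1 exceeded Amotl2 in 8, Amotl2 exceeded Tead1 in 10 and Tead1 exceeded Wwtr1 in 5. For Tead1 and Wwtr1 the order turned with the sheet: Tead1 was below Wwtr1 in all 6 rats of sheet 1 (6.30 to 9.63 against 9.93 to 11.9 CPM per kilobase) and above it in all 5 deep rats of sheet 2 (14.2 to 19.5 against 6.59 to 13.9). Yap1 exceeded Amotl2 in all 6 rats of sheet 1 and in 2 of 5 on sheet 2.

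**Figure D4:**
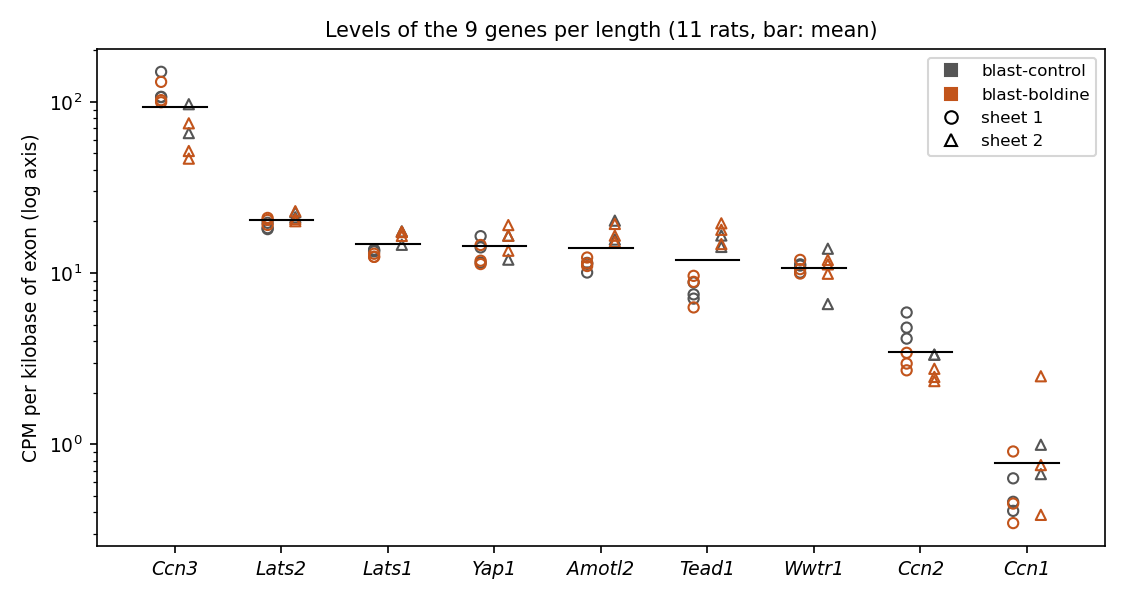
CPM per kilobase of exon (log axis) of the 9 genes in order of their mean (bar) over 11 rats, grey for blast-control and orange for blast-boldine, circles for sheet 1 and triangles for sheet 2. Ccn3 lies at 46.5 to 149.6 and Ccn1 at 0.347 to 2.50, with the kinases, coactivators, Tead1 and Amotl2 between them.

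The rest of the pathway was described with lists of genes, none of which had a member with an adjusted p under 0.05. Of 17 other YAP-TEAD target genes, 14 were listed and tested, and none had an unadjusted p under 0.05. Their median log2 fold change was -0.01, with 9 of 14 below 0, against a median of 0.00456 over all 12325 genes, of which 48.7% were below 0. Without rat 6 the median was -0.06, and with a sheet term as well 11 of 14 were below 0, beside 52.6% of 12529 genes. The 3 with the smallest unadjusted p were Ankrd1, a cardiac and muscle ankyrin protein widely used as a YAP readout (-0.56, SE 0.28), the receptor tyrosine kinase gene Axl (-0.14, SE 0.12) and the ligand gene Tgfb2 (0.20, SE 0.20). Ankrd1 had 6 to 43 counts per deep library and measured 0.347 to 1.14 CPM in blast-boldine rats and 0.786 to 1.23 CPM in the deep blast-controls, and 5 of 6 blast-boldine rats were below the lowest of these, as at least 5 were in 0.479% of genes. On sheet 1 the groups overlapped, with a difference in mean log2 CPM of -0.15, and on sheet 2 it was -1.08, from 6 counts in each blast-boldine rat and 10 and 12 in the blast-controls.

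Upstream, 17 of 21 Hippo kinases, adaptors and regulators were tested, with a median of 0.04 and 6 below 0 (-0.00234 and 9 without rat 6 and with a sheet term), and none had an unadjusted p under 0.05. Stk3, which encodes the kinase MST2 that activates LATS1 and LATS2, had the smallest p of this list, at 0.53 (SE 0.26). It measured 69.4 and 73.8 CPM in blast-boldine rats 12 and 17, and 26.3 to 40.2 CPM in the other 9 deep libraries. The next were the protocadherin gene Dchs1 (-0.12, SE 0.13) and the YAP-binding phosphatase gene Ptpn14 (0.32, SE 0.38). Of the other TEAD factors and cofactors, 3 were tested: Tead3 (-0.32, SE 0.24), Tead2 (-0.05, SE 0.37) and the TEAD repressor gene Vgll4 (-0.01, SE 0.12). When the sheet was modelled and rat 6 left out, 670 of 12529 genes (5.35%) had an unadjusted p under 0.05, and among them were Tead3 (-0.40, SE 0.17) and Stk3 (0.39, SE 0.17). Without rat 6 and with no covariate that share was 1.4%.

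Among 11 tested receptors of CCN proteins the median was 0.01, and no gene had an unadjusted p under 0.05; the 3 leading genes were Lrp6 (0.18, SE 0.20), Itgb5 (0.10, SE 0.12) and Itga5 (0.18, SE 0.30). With the sheet modelled and rat 6 left out, 1 of the 11, the receptor gene Notch1, had an unadjusted p under 0.05 (-0.21, SE 0.09), where 5.35% of all genes did; it was named after its value was seen. Inputs that act on CCN genes besides YAP1 were listed as 9 genes of TGF-beta and serum response factor signalling, with a median of -0.01. Of these, 5 were below 0 and 4 above, from -0.12 to 0.26, so that nothing is read from the median. The leading genes there were the receptor gene Tgfbr1 (-0.12, SE 0.14), Smad4 (0.14, SE 0.19) and Tgfb1 (0.26, SE 0.42). Ccn1 and Ccn2 also respond quickly to stimuli, as immediate early genes do. Of 14 activity-regulated immediate early genes, 12 were below 0 with a median of -0.23, and 4 had an unadjusted p under 0.05, all lower, among them the nuclear receptor gene Nr4a1 (-0.63, SE 0.17) and the zinc finger genes Egr4 (-0.75, SE 0.27) and Egr2 (-1.10, SE 0.43); the fourth was Fosb, named after its value was seen. Over all genes, 48.7% were below 0, and 0.519% were lower and 0.552% were higher at that p. The paper names all 4 of these genes among its nominal candidates from these same libraries. Their count is therefore no independent support, and nothing is read from it.

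Of 9 markers of layer 6 and 6b neurons, 7 were listed. A log2 fold change below 0, found in Ccn2 and in 48.7% of all genes, was found in 6 of these 7 markers. Their median was -0.47 (-0.40 without rat 6). None had an adjusted p under 0.05, and 3 had an unadjusted one, all lower, as 0.519% of all genes were. These were Nxph4 (-1.09, SE 0.35), which encodes a neurexophilin of layer 6b, the synaptic gene Cplx3 (-1.06, SE 0.36) and Rprm (-0.69, SE 0.31), a marker of layer 6. Nr4a2 (-0.47, SE 0.24), Tbr1 (-0.36, SE 0.19), Foxp2 (-0.20, SE 0.27) and Lpar1 (0.02, SE 0.19) made up the list. When the sheet was modelled and rat 6 left out, 5 of the 7 (Nxph4, Cplx3, Rprm, Nr4a2 and Tbr1) had an unadjusted p under 0.05 and all 5 were lower, beside 3.54% of all genes. In DESeq2 with all rats the 3 genes past that p were Cplx3, Nr4a2 and Tbr1, beside 0.344% of all genes lower, and Nxph4 and Rprm were not among them. Nxph4 had 3 to 16 counts in blast-boldine rats and 7 to 75 in the deep blast-controls. The list was chosen with earlier results of these data known. The paper names Nr4a2 and Tbr1 among its nominal candidates from these same libraries, and it counts Nr4a2 with the activity-regulated factors. These counts are therefore a description and no test of the cell type.

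Cplx3 measured 15.6, 2.76, 13.7, 7.07 and 5.92 CPM in blast-control rats 1, 4, 5, 7 and 9, and 3.17 to 5.77 CPM (median 4.30) in blast-boldine rats. The blast-controls thus spread more than the blast-boldine rats, and rat 4 lay below all of these. The summed level of the 7 listed markers was 196 to 246 CPM in blast-boldine rats and 225 to 285 CPM in the deep blast-controls, and 3 of 6 blast-boldine rats were below the lowest of these. None of the 7 was at 0 in a deep library, and 4 were at 0 in rat 6. In bulk RNA, fewer cells of a type and less RNA per cell cannot be told apart, and the part of these neurons in the Ccn2 difference was not tested.

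**Figure D5:**
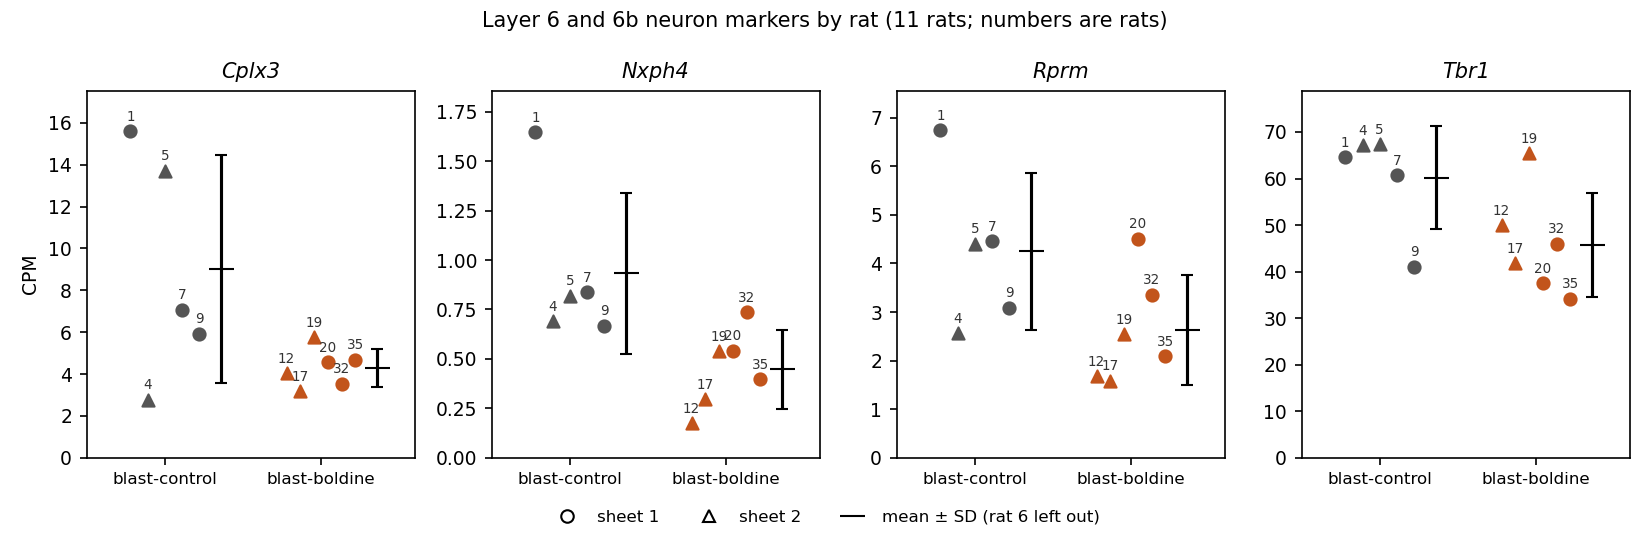
CPM (linear axis from 0) of the layer 6 and 6b markers Cplx3, Nxph4, Rprm and Tbr1 in 11 rats, 1 point per rat, circles for sheet 1 and triangles for sheet 2, with the mean ± SD as bars. Blast-control rat 1 is the highest for Cplx3, Nxph4 and Rprm, and for each of the 4 genes at least 1 blast-boldine rat overlaps the blast-controls.

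Markers of the other cells that express CCN genes were examined in the same way. Meningeal and perivascular fibroblast markers had a median log2 fold change of 0.57 over 6 genes, of which the collagen genes Col3a1 (0.94, SE 0.40), Col1a2 (0.72, SE 0.38) and Col1a1 (0.53, SE 0.31) led. Their summed level ranged from 68.6 to 283 CPM in blast-boldine rats and from 48.5 to 236 CPM in the deep blast-controls. Endothelial markers had a median of 0.23 (6 genes), mural cell markers 0.13 (6 genes), astrocyte markers -0.07 (6 genes), hippocampal neuron markers 0.03 (6 genes), choroid plexus markers 0.32 (5 genes) and ependymal markers 0.23 (4 genes). The genes with the smallest p among vessel markers were the endothelial receptor genes Kdr (0.39, SE 0.38) and Tek (0.24, SE 0.23) with the cadherin gene Cdh5 (0.41, SE 0.53), and the mural genes Vtn (0.27, SE 0.26), Tagln (-0.18, SE 0.24) and Myh11 (0.32, SE 0.55). Among astrocyte markers they were the filament gene Gfap (-0.17, SE 0.14), the connexin gene Gja1 (-0.24, SE 0.21) and Aldh1l1 (-0.13, SE 0.19). Among hippocampal neuron markers they were Wfs1 and the transcription factor genes Neurod6 (0.19, SE 0.18) and Zbtb20 (0.16, SE 0.21). Among choroid plexus markers they were Clic6 (0.90, SE 1.29), the transthyretin gene Ttr (0.67, SE 1.35) and Folr1 (0.22, SE 0.90), and among ependymal markers Ccdc153, Tmem212 (0.39, SE 0.35) and Rarres2 (-0.10, SE 0.16). Without rat 6 the astrocyte median was -0.14, with 6 of 6 below 0 against 4 of 6 with it, and the hippocampal median was 0.07. In that fit 50.3% of all genes were below 0. With a sheet term and all rats, the medians were 0.82 for choroid plexus, 0.67 for fibroblast, 0.11 for endothelial and 0.02 for mural cell markers. In these lists the genes with an unadjusted p under 0.05 were Col3a1 and the ependymal gene Ccdc153 (1.02, SE 0.29), both higher, as 0.552% of all genes were. With the sheet modelled and rat 6 left out, where 5.35% of all genes had such a p, these were joined by the fibroblast gene Lum (0.77, SE 0.24), higher and named after its value was seen, and by the hippocampal neuron gene Wfs1, which was lower (-0.28, SE 0.09; -0.35, SE 0.17 with all rats and no sheet term). In DESeq2 with all rats, Wfs1 also had an unadjusted p under 0.05 and was lower (-0.33, SE 0.15), as 0.344% of all genes were. The choroid plexus sum varied from 8.54 to 1200.0 CPM in blast-boldine rats and from 12.9 to 1177 CPM in the deep blast-controls. In rat 17, which had the highest Ccn1, the endothelial sum was 291 CPM, but rat 19 also had 291 CPM, with 0.770 CPM of Ccn1; the part of these cells in the Ccn1 value was not tested.

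How Ccn2 varied together with other genes between rats of the same diet and sheet was not used to choose the genes, although its spread entered the p by which they were chosen. The log2 CPM of Ccn2 in 11 rats, with the mean of each diet and sheet subtracted, was correlated with that of the other 8 genes and of the 7 listed layer 6 and 6b markers, 15 relations in all. None passed after adjustment. With the other 8 genes, Pearson's r ran from -0.28 (Ccn3; Spearman's rho -0.45) to 0.51 (Yap1; rho 0.45), where exact two-sided permutation within diet and sheet gave adjusted p from 0.773 to 0.920. With the layer 6 and 6b markers, r ran from -0.000728 (Lpar1; rho -0.05) to 0.53 (Nxph4; rho 0.44), with adjusted p of 0.773 to 1 in the same permutation test. The adjusted p for rho was 0.873 in all 15, and 432 permutations allow no unadjusted p below 0.00231.

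Within the 6 rats of sheet 1, r of Ccn2 with Nxph4 was 0.88 and with Tbr1 0.85. These were the highest among the layer 6 and 6b markers, and the lowest was 0.27 (Lpar1). In the 5 rats of sheet 2, the values for Nxph4 and Tbr1 were -0.40 and -0.95. Either sheet holds too few rats for a correlation, and these values carry no test. Over both sheets, with the mean of each diet and sheet subtracted, r was 0.53 for Nxph4 and 0.41 for Tbr1. When the 2 rats farthest from the median of Ccn2 (blast-controls 1 and 7) were left out, these became 0.07 and -0.11. The values over both sheets thus depended on those rats. Whether the values within sheet 1 did was not tested, since r within sheet 1 was not computed without those rats. For Lats2, r went from 0.23 to 0.84 without them. The 72 permutations left in that case allow no unadjusted p below 0.0139, so that no single relation could pass over 15. With only the sheet means subtracted, r was 0.76 for Nxph4 and 0.75 for Tbr1; these values hold the diet difference by which the genes were chosen, and carry no test.

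The 5 genes whose log2 CPM followed that of Ccn2 most closely within diet and sheet, of 12037 genes with a mean of at least 1 CPM, were Spef1 (r = 0.95), Cep131 (r = 0.94), Pard3 (r = 0.94), Snrnp70 (r = 0.94) and Anpep (r = 0.94). Spef1 and Cep131 encode proteins of cilia and centrosomes, Pard3 a cell polarity protein, Snrnp70 a spliceosome protein and Anpep an aminopeptidase. Their log2 fold changes between the diets ran from -0.07 (Spef1) to 0.50 (Anpep), and were not like that of Ccn2. By rank correlation, Snrnp70 was the only one of them still among the 5 leading genes. These likenesses are a description over 11 rats, chosen as the highest of many.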

How the data were processed

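The deposited values are counts, whole numbers without normalization, of 17494 genes in 12 libraries. Per the study's methods, the authors sequenced rRNA-depleted total RNA as stranded libraries, used HTStream for trimming and for the removal of PCR duplicates, mapped with STAR 2.7.11b on mRatBN7.2 and counted the sense strand of RefSeq exons by gene name with featureCounts (Subread 2.0.1), so that duplicates are already out of the counts. The stated command sets no option for reads that map to several places, which featureCounts then leaves out, and near-identical genes may be undercounted. The sample labels gave the groups, and the study's methods gave dose and timing. Each library is 1 rat.

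Genes were tested with edgeR 4.0.16 in R 4.3.3 (quasi-likelihood F test, TMM, filterByExpr at its minimum of 10 counts, treatment as the only term, two-sided, Benjamini-Hochberg over all 12325 genes tested). The SE is the absolute log2 fold change divided by the square root of F. CPM are counts per 1000000 of the TMM-scaled total, log2 CPM adds a prior count of 2, and levels per length divide CPM by the exon bases of the count table. The detection limits cover counting error only. The 2 sheets were assigned by the library suffixes: rat numbers were assumed to rise with the suffix within a sheet, and of the 4 assignments then left the one that best matched the first principal component was used. Correlations used exact permutation in Python 3.11.15 with scipy 1.17.1. The procedures were tested on simulated data. Promoters came from RefSeq on GRCr8 and were matched by symbol, and coordinates of genes are those of the count table on mRatBN7.2.

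The genes and the lists were chosen with earlier results of these data known. Beside the 9 genes, the text names the other CCN genes, the 3 genes of each list with the smallest unadjusted p, all layer 6 and 6b markers and the 5 genes most like Ccn2; genes of a list that were not found under their symbol were not analysed here. Alternatives were DESeq2 1.42.0, other normalizations, no filter, the sheet as a covariate, each rat left out, a prior count of 0.5 and other centrings of the correlations.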

Additional observations from a re-analysis of the deposited data

Results flagged for a closer look

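Among the values of the 9 genes, 3 stood far from the rest of their group in 27 sets of 5 or 6 rats (each gene in blast-boldine rats and in blast-controls with and without rat 6). Chance alone marks about 1 in 20 such sets. Ccn1 measured 4.96 CPM in blast-boldine rat 17 (50 counts), where the next rat of the group had 1.80 CPM. Lats1 measured 190.1 CPM in blast-control rat 6, from 12 counts, where the next rat had 124 CPM. Yap1 was at 0 CPM in the same rat, from 0 counts, which allows up to 47.5 CPM, where the next rat had 16.9 CPM. The other 11 rats of these genes are given in the report, and no cause was tested.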

How the results depend on the processing

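The number of genes with an adjusted p under 0.05 was 0 in all 20 fits, and Ccn2 was the only one of the 9 genes with an unadjusted p under 0.05 in each of them. The set was chosen by this p of Ccn2, and the fits share the same rats. Its return in each fit is therefore a description and no independent support. The number of genes with an unadjusted p under 0.05, 132 in the fit reported, was 85 with DESeq2, 279 with DESeq2 without rat 6, 254 with no filter, 474 with a sheet term and 670 with that term and rat 6 left out; it ranged from 85 to 214 when single rats were left out (87 without rat 1, 214 without rat 5, 85 without rat 12 and 85 without rat 17). For Ccn2 the log2 fold change ran from -0.73 to -0.51 (without rats 4 and 1). All 171 alternative fold changes of the 9 genes, and 9 with another prior count, moved by less than 1 SD between rats; Tead1 stayed above 0 and Ccn3 below 0, and the sign of Ccn1, Yap1, Wwtr1, Amotl2, Lats1 and Lats2 depended on the fit. Of 45 alternative correlations, 15 moved by more than 0.3, and none of the 15 relations passed after adjustment with r or with rho; the version without the 2 farthest rats was too small for a single relation to pass, and that with only sheet means subtracted carries no test. Depth limits Ccn1, Ccn5, Ccn6, Nxph4 and Ankrd1.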
